A study of Caenorhabditis elegans with 2 samples.

Results

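The cohesin subunit HIM-1, also called SMC-1, had 349 of the 2051 peaks of its optimal list at one-sided promoters by the rule used here (17.0%, interval 15.4 to 18.7%). The optimal list is the authors' set of peaks that passed a threshold on the irreproducible discovery rate, a measure of how repeatable peak ranks are. A peak was counted where its summit lay within 500 bp of the 5' end of a protein-coding gene and over 250 bp from tRNA, rRNA, snRNA and snoRNA genes. It also had to lie outside the sequence between head-to-head genes whose 5' ends are at most 1000 bp apart, and outside gaps of 50 to 500 bp between neighbours on the same strand. Of 758 summits within 500 bp of a 5' end, 102 were near small RNA genes, 170 lay between head-to-head genes and 137 lay in such same-strand gaps, here called operon-like gaps. The remaining 349 are the peaks described. ChIP-seq, the sequencing of DNA precipitated with a protein, used whole hermaphrodites of Caenorhabditis elegans strain YL577, which stably carries HIM-1 with GFP-FLAG at its C terminus. The animals were young adults, 47 hours after synchronization as starved L1 larvae. The labels record an insertion that targets him-1 and do not say whether an untagged copy remains. Biological replicates 1 and 2 form the 1 group, with no other genotype, treatment or control library among the samples. The labels' description names an antibody against GFP, while the antibody field names him-1. Nothing in the labels says that the replicates were separate cultures, so their spread may be technical, and whole animals mix germ line and somatic nuclei.

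Cohesin is a ring of SMC-1, SMC-3 and a kleisin that entraps DNA. It holds sister chromatids together through mitosis and meiosis and folds interphase chromatin into loops. In many organisms it is found at active genes, where it is loaded and from where it can slide. In C. elegans many genes are transcribed in operons, usually from the promoter of the first gene, and many others share the sequence between divergent 5' ends. The annotated 5' end is often a site of trans-splicing, at which a short leader replaces the start of the transcript, so transcription can begin some way upstream of it. A peak upstream of a gene that shares its 5' sequence with no close neighbour is the simplest case to assign to 1 promoter.

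The 2 peaks with the highest signal lay upstream of genes for ribosomal proteins. Of the 25 strongest, 3 lay upstream of genes listed here as ribosomal protein genes, the third being rpl-24.2. Most of the upstream summits had the letters GCGC within 100 bp. The sequences shown are the 81 bases around the summits of the peaks with the highest signal, on the coding strand of the nearest gene, with the summit at base 41 and each match to GCGC in capitals. They are shown because this motif is what most of the upstream peaks shared at their summits. Sequence of 1 chromosome and of annotated UTRs is not printed, and these are the strongest 8 of the rest, read from the RefSeq sequence of WBcel235, the assembly of ce11. rpl-35 (chrIII:7854636-7854716), rpl-3 (chrIII:3867529-3867609), moc-6 (chrIII:5196315-5196395) and cpg-1 (chrIII:4489073-4489153) lie on the plus strand. acbp-4 (chrIII:7308760-7308840), cdc-48.1 (chrII:10563525-10563605), sec-61.G (chrV:10897364-10897444) and C17G10.10 (chrII:5599703-5599783) lie on the minus strand. The summits of moc-6 and acbp-4 lie in introns, past the 5' end, and the other 6 are intergenic and upstream.
rpl-35: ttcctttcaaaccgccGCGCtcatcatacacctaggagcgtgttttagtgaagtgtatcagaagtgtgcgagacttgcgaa
rpl-3: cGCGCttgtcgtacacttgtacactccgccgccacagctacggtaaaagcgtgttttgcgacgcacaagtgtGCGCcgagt
moc-6: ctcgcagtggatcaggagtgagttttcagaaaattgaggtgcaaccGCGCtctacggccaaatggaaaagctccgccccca
cpg-1: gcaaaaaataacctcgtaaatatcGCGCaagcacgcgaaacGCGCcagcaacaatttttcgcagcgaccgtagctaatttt
acbp-4: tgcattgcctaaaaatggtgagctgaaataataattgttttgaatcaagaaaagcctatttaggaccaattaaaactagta
cdc-48.1: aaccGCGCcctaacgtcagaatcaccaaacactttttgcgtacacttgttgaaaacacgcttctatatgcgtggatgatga
sec-61.G: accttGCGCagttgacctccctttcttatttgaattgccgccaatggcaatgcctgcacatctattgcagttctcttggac
C17G10.10: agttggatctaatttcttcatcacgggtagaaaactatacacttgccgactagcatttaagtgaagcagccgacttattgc

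The rpl-35 peak was the strongest. rpl-35, which encodes a protein of the large ribosomal subunit, had its summit 458 bp upstream of the 5' end (III 7854676, signal 297), at rank 16 of 2051, and its entry ranked 17 in replicate 1 and 16 in replicate 2. The signal is the value the authors' peak caller gave each peak and is used only to rank peaks within a list. rpl-3, another large-subunit gene, had its summit 285 bp upstream (III 3867569, signal 274) and ranked 29 in replicate 1 and 23 in replicate 2. cpg-1, which encodes a chondroitin proteoglycan of the eggshell, had its summit 246 bp upstream (III 4489113, signal 232) and ranked 87 in replicate 1 and 27 in replicate 2. These 3 genes each had GCGC in the sequence shown and held a high rank in both replicates. cdc-48.1, a gene for the p97 ATPase that extracts proteins for degradation, followed with a summit 158 bp upstream (II 10563565, signal 206) and ranks of 106 in replicate 1 and 56 in replicate 2. sec-61.G, which encodes a subunit of the channel that moves proteins into the endoplasmic reticulum, had its summit 261 bp upstream (V 10897404, signal 183) and ranked 102 and 149.

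Not every strong peak lay upstream. moc-6 followed rpl-3 in signal (266), with a summit 365 bp past its 5' end (III 5196355), in an intron. Its 5' end lies inside hira-1, a histone chaperone gene, and its ranks were 65 in replicate 1 and 15 in replicate 2. acbp-4, an acyl-CoA-binding protein gene, had a signal of 214 at 309 bp past the 5' end, and its 5' end lies inside F56C9.6. B0261.9 had the same rounded signal at 100 bp past its 5' end, 139 bp past the 3' end of its same-strand neighbour vep-1, the genes being 38 bp apart. These 3 genes do not have an upstream region to themselves.

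Among the 25 with the highest signal, 18 lay upstream and 14 were on III. They included pie-1, a zinc finger repressor of the germ line (signal 154, 153 bp upstream), pcn-1, the sliding clamp of DNA replication (141, 296 bp upstream), and cpar-1, a CENP-A-related histone (140, 305 bp upstream). egg-1, a receptor the egg needs for fertilization (140, 163 bp upstream), mog-4, a splicing helicase (138, 224 bp upstream), and rpl-24.2 (137, 139 bp upstream) were among them too. So were pdhk-2, a pyruvate dehydrogenase kinase (165, 227 bp upstream), and unc-93, a regulator of muscle potassium channels (136, 338 bp upstream). Upstream summits also belonged to C17G10.10 (179), F14H8.8 (174), K12H4.5 (152) and Y75B12B.1 (140). The downstream summits belonged to F31E3.12 (166), T05G5.4 (154), F25H9.6 (143) and apc-11, a subunit of the anaphase-promoting complex (137), besides the 3 already named. T05G5.4 lies 81 bp after cdk-1, the gene of the main mitotic kinase, and its summit lay 102 bp past its own 5' end.

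These peaks were weaker than the optimal list as a whole, with a median signal of 75.2 and a range of 60.8 to 297, against a median of 83.3 and a highest value of 497 over all 2051 peaks. Among the 100 strongest peaks of the list 7 were one-sided promoter peaks, and 126 of the 349 (36.1%, interval 31.1 to 41.4%) were among its 1025 strongest. Nearly all had the same width, 464 bp in 344 of 349, and 266 (76.2%) had the highest −log10 q-value in the list, 3.54. One-sided peaks held this tied value down to rank 1727 of 2051, so it does not single out strong peaks. Intervals are exact 95% Clopper-Pearson intervals and cover only the error of counting peaks or genes. Read depth is unknown, because the lists hold no counts.

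Both replicates held most of the peaks. An entry within 200 bp was found for 344 of 349 in replicate 1 and for 346 in replicate 2, with a median displacement of 18 and 7 bp. Peaks of a close pair can match the same entry, which happened at 5 entries of replicate 1 and 3 of replicate 2. Those lists also hold background, so rank is the stricter measure: 252 peaks were among the 2051 strongest of replicate 1 and 285 among those of replicate 2. Both replicates had 202 among their strongest (57.9%, interval 52.5 to 63.1%) and 14 (4.01%) were among the strongest of neither. The median rank was 1359 in replicate 1 and 1249 in replicate 2, with ranks as low as 18354 and 7101. Signals of the 341 peaks with an entry in both replicates were loosely related (Spearman rank correlation 0.372, across peaks, which are not independent and share the same 2 libraries). On log signals the Pearson correlation was 0.493. The optimal list was made from both replicates, so finding its peaks in each is in part a result of that selection. It holds no signal below 60.8, and both correlations cover only peaks selected in this way. How firmly a single peak is placed was not tested.

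**Figure D1:**
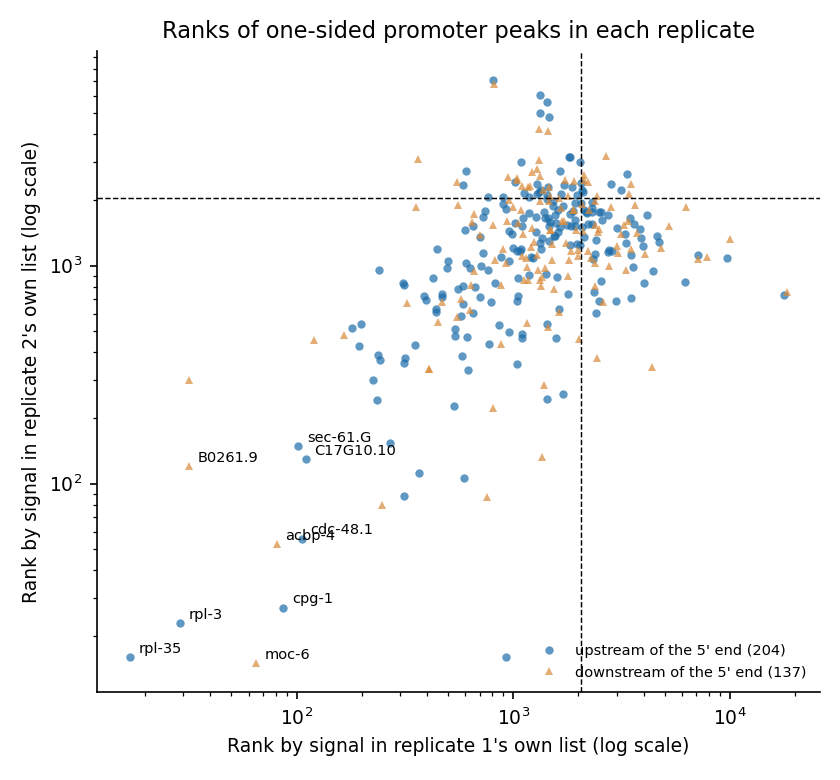
Rank by signal of 341 one-sided promoter peaks in replicate 1's own list (x axis) and replicate 2's (y axis), both on log scales, with circles for summits upstream and triangles for summits downstream of the 5' end. Dashed lines mark rank 2051; rpl-35 (ranks 17 and 16) and rpl-3 (29 and 23) sit at the lower left, and most points gather near the crossing of the lines.

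The name given to these peaks held for 59.3% of them. At 207 of 349 (interval 54.0 to 64.5%) the nearest gene had an upstream side of its own: the neighbour was on the same strand and over 500 bp away for 108, or head-to-head and over 1000 bp away for 99. At the other 142 the upstream side was shared with or overlapped by another gene. For genes after an operon-like gap and head-to-head genes the rule leaves out the shared sequence, not the gene, so a summit elsewhere at the same 5' end still counted. These were 73 peaks at genes that follow an operon-like gap, 32 at genes whose 5' end lies inside another protein-coding gene, 20 at head-to-head genes and 17 at genes under 50 bp behind a same-strand neighbour. So 90 peaks were at genes that follow a same-strand neighbour by 500 bp or less, and the files and annotation used here name no operons. The share at genes with a free upstream side was 58.4% ± 1.52 in the replicates' own lists (SD, n = 2).

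Summits lay upstream of the 5' end in 205 of 349 cases (58.7%, interval 53.4 to 64.0%) and downstream in 144. The replicates' own lists gave 59.4% ± 0.129 upstream (SD, n = 2). Positions are negative upstream. The median over all peaks was -99 bp. Split at the 5' end, upstream summits had a median of -261 bp (quartiles -379 and -153). Downstream summits had a median of 140 bp (quartiles 65 and 258). The median position was -101 ± 11.3 bp in the replicates (SD, n = 2). Where the gene had an upstream side of its own, 87.4% of the summits lay upstream, 83 of 99 with a distant head-to-head neighbour (median -192 bp) and 98 of 108 with a distant same-strand neighbour (median -294 bp). Where the upstream sequence had been removed by the rule, most of what was left lay inside the gene. Of 73 peaks at genes after an operon-like gap 70 lay downstream, at a median of 120 bp, as did all 20 at head-to-head genes, at a median of 42 bp. The overall share upstream is therefore set in part by which sequence the rule admits.

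Per megabase of sequence that meets the rule, the peaks were about as dense just before as just after the 5' end and thinned out inside genes. The upstream and downstream sequence come from different mixes of genes. For genes after an operon-like gap and head-to-head genes the rule leaves out the shared upstream sequence but keeps the inside. The densities therefore do not compare the sides of the same genes. At genes with a free upstream side 87.4% of the summits lay upstream. Autosomes had 33.2 peaks per Mb of such sequence upstream and 17.1 per Mb downstream. The highest value was 40.2 per Mb between 300 and 200 bp upstream, with 37.7 in replicate 1 and 40.2 in replicate 2. The first 100 bp past the 5' end had 31.6 per Mb, and between 400 and 500 bp past it the density was 5.99 per Mb, with 9.58 in replicate 1 and 6.59 in replicate 2. Upstream the density was still 28.9 per Mb between 500 and 400 bp, so the limit of 500 bp does not mark the end of these peaks on that side. The summits just inside the limit belonged to T21B10.3 (499 bp, signal 111), K12H4.5 (498 bp, 152) and C17H12.2 (497 bp, 62.8). Those just outside were nearest to fkb-2 (507 bp, 69.0), his-58 (508 bp, 64.2) and F58D5.9 (509 bp, 97.4).

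**Figure D2:**
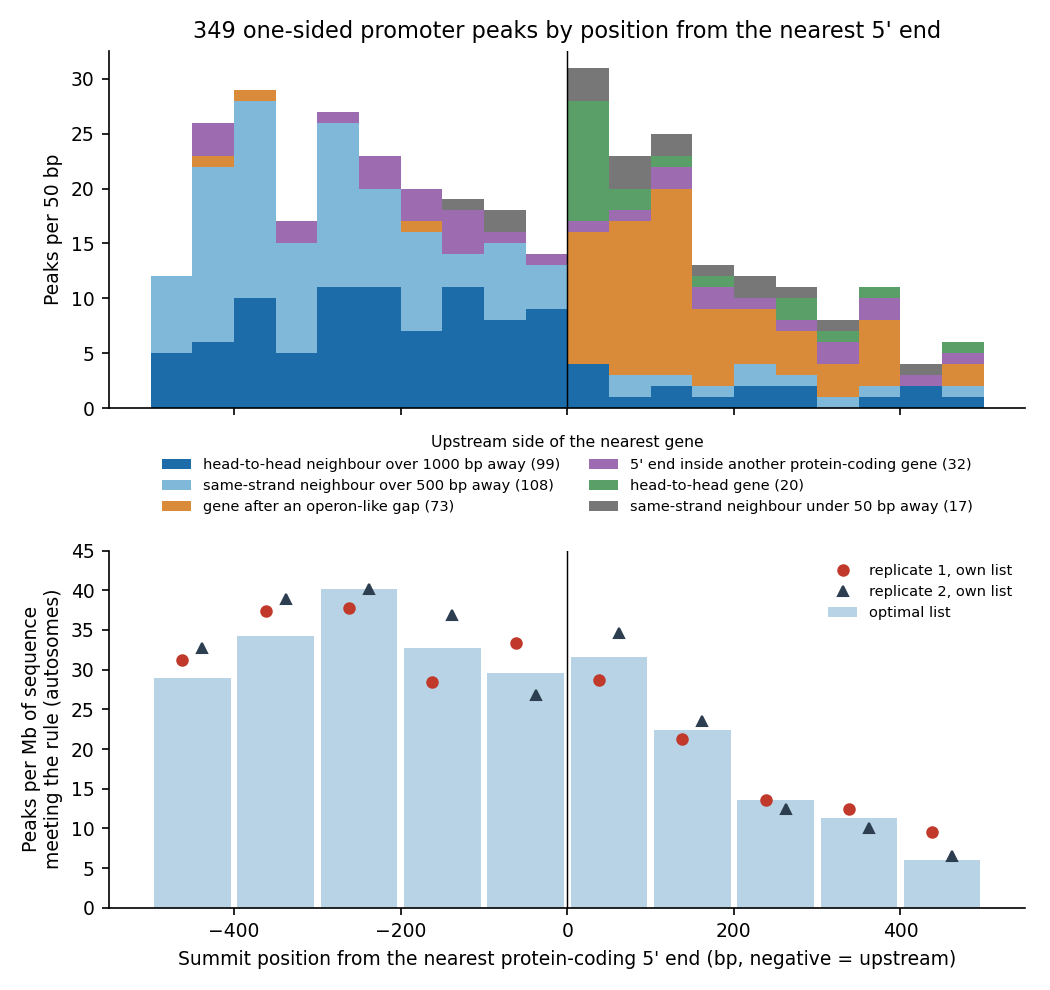
Top, number of one-sided promoter peaks per 50 bp of distance from the nearest 5' end, coloured by what lies upstream of that gene; bottom, peaks per Mb of autosomal sequence meeting the rule in 100 bp steps, with bars for the optimal list and points for each replicate's own list. Genes with a free upstream side (blues) fill the left side and genes after an operon-like gap (orange) much of the right; the density falls to 5.99 per Mb between 400 and 500 bp inside genes.

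What the annotation places at the summit followed from the side. Upstream summits were intergenic in 181 of 205 cases (88.3%, interval 83.1 to 92.4%), in an intron of another gene in 15, in a 3' UTR in 6, in a 5' UTR in 2 and in a coding exon in 1. Downstream summits were in introns in 58 of 144 cases, in coding exons in 42, in 5' UTRs in 41 and in 3' UTRs in 3. Gene ends lay close to many of them. Within 500 bp of a 3' end were 174 of 349 summits, made up of 70 of the 205 upstream and 104 of the 144 downstream, and 58 (16.6%) were nearer a 3' end than a 5' end. Of the 174, 68 were at genes after an operon-like gap and 17 at genes under 50 bp behind a same-strand neighbour. At such genes the neighbour's 3' end is close to the 5' end by definition. How much of the sequence meeting the rule lies that near a 3' end was not measured. Among the 98 upstream summits at genes with a distant same-strand neighbour, the gap to that neighbour had a median of 741 bp, against 1641 bp over all such genes. Of these 98 summits 29 were nearer the neighbour's 3' end than the 5' end they were assigned to. At these peaks a 5' end and a 3' end cannot be told apart by position alone.

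A pair of summits occurred at 12 genes, so the 349 peaks were nearest to 337 genes. The members of a pair were 199 to 758 bp apart and in 10 pairs under 250 bp. At rpl-35 the second summit lay 253 bp upstream, 205 bp from the first, with a signal of 72.9 against 297. These peaks overlap, and both matched the same entry of replicate 2, at rank 16. At pdhk-2 the summits lay 429 and 227 bp upstream (60.9 and 165), at unc-101, a clathrin adaptor gene, 405 and 199 bp upstream (107 and 61.6), and at unc-93 338 and 99 bp upstream (136 and 67.1). B0261.9 had 214 at 100 bp and 108 at 333 bp past its 5' end, and both matched the same entry of replicate 1, at rank 32. In the pairs named 1 summit was clearly stronger than the other, while at ccpp-6 the signals were 69.4 and 72.2. Of the 349 summits 331 were within 500 bp of 1 protein-coding 5' end and 18 within 500 bp of 2.

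Peaks were spread over the autosomes and nearly absent from X. Chromosome III held 84, II held 80, I held 71, IV and V held 56 each and X held 2. Relative to the sequence that meets the rule, X had 0.786 peaks per Mb and the autosomes 23.8. In the replicates' own lists X had 5 peaks in replicate 1 and 1 in replicate 2, or 1.18 ± 1.11 per Mb, and the autosomes 24.5 ± 0.631 per Mb (SD, n = 2). Counted over genes, 2 of 2731 genes on X (0.0732%, interval 0.00887 to 0.264%) and 335 of 17242 autosomal genes (1.94%, interval 1.74 to 2.16%) were nearest to such a peak. Among the autosomes III was densest, with 38.5 per Mb, and V sparsest, with 13.0 per Mb, and both replicates gave the same order for these, 39.8 and 39.8 on III and 14.0 and 14.2 on V. With each autosome divided into 3 equal lengths, the middle one contained 158 of 347 peaks (45.5%, interval 40.2 to 50.9%) and 37.6% of the sequence meeting the rule, or 28.9 per Mb there against 20.8 per Mb in the outer parts. Replicate 1 gave 29.6 and 20.8 per Mb and replicate 2 gave 27.6 and 23.4.

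**Figure D3:**
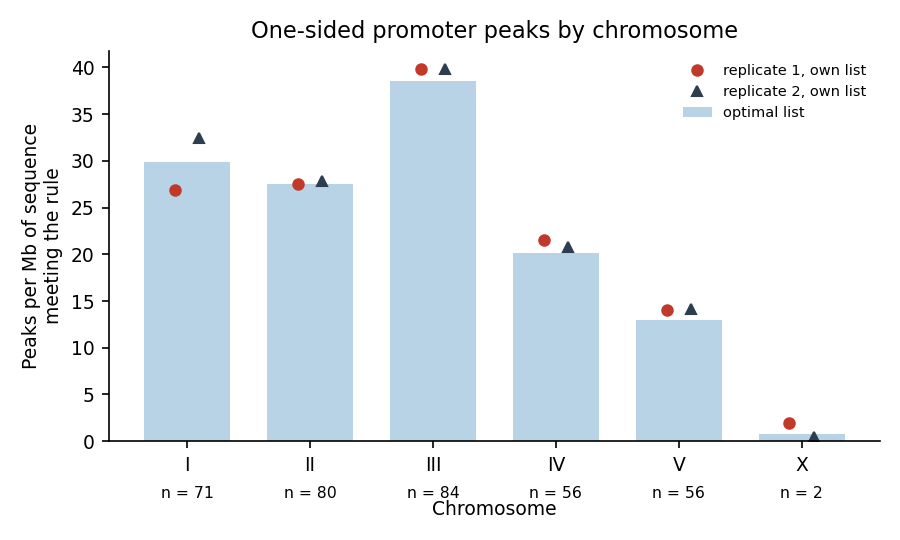
One-sided promoter peaks per Mb of sequence meeting the rule (y axis) on each chromosome (x axis), with bars for the optimal list, a circle for replicate 1 and a triangle for replicate 2; n is the number of peaks. III has the highest bar at 38.5 per Mb, and X the lowest at 0.786.

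The 2 peaks on X were unlike each other. That at ZK816.3 (summit 304 bp upstream, X 3348087) had a signal of 121 and ranked 579 in replicate 1 and 386 in replicate 2. That at epn-1, which encodes epsin, an adaptor of endocytosis (397 bp upstream, X 14818911), had a signal of 61.5, close to the lowest of the list, and ranked 1834 and 3134. The ZK816.3 window had no GCGC within 100 bp of the summit and the epn-1 window had 10 matches. On IV, the peak at Y69A2AR.31 (IV 2664253, signal 75.1) lay in Y69A2AR.t3, annotated by RefSeq as a tRNA pseudogene (IV 2664242 to 2664314), a class the rule does not remove. It was the only one within 250 bp of such a pseudogene.

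The share of genes nearest to one of these peaks varied with what lay upstream of the gene, and so did the sequence admitted. The rule admits both sides of genes with a free upstream side. For genes after an operon-like gap and head-to-head genes it leaves out the shared upstream sequence. The shares are per gene and do not allow for this difference. Of all 19973 protein-coding genes 337 (1.69%) were nearest to a one-sided promoter peak, the background for the counts that follow, and 1.72% and 1.75% were in the own lists of replicates 1 and 2. Of the 11607 genes with a free upstream side 200 were (1.72%, interval 1.49 to 1.98%, and 1.76% ± 0.0670 in the replicates, SD, n = 2). The share was 2.10% (70 of 3326, interval 1.64 to 2.65%) for genes after an operon-like gap and 2.30% (32 of 1391) for genes whose 5' end lies inside another gene. It was 0.582% (20 of 3436, interval 0.356 to 0.898%) for head-to-head genes, whose upstream side is excluded. It was highest, 7.21% (15 of 208, interval 4.09 to 11.6%, and 6.49% ± 1.70 in the replicates, SD, n = 2), for genes under 50 bp behind a same-strand neighbour. All 17 peaks of that last kind lay within 500 bp of a 3' end, which the short gap to the neighbour makes nearly certain. The median length of the 337 genes was 2231 bp, against 2027 bp over all protein-coding genes.

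Gene lists of the oocyte, the germ line and the ribosome stood highest against the background of 1.69%, and their intervals lay above it in each replicate's own list as well. No test was made, since the lists were chosen with earlier results of these data known. Of 82 genes listed as cytosolic ribosomal protein genes 11 were nearest to a peak (13.4%, interval 6.89 to 22.7%), 8 in replicate 1's own list and 14 in replicate 2's. All 11 summits lay upstream, and 10 were at the 23 ribosomal protein genes with a free upstream side (43.5%), against 1.72% over all such genes. After rpl-35, rpl-3 and rpl-24.2 came rpl-38 (signal 117, 361 bp upstream), rpl-14 (96.0, 321 bp), the small-subunit gene rps-4 (79.6, 250 bp) and the stalk protein gene rla-0 (75.2, 368 bp). The others were rpl-13, rps-28, rpl-29 and rps-8, with signals of 64.5 to 70.2, so that 4 of the 11 were below the median of all one-sided promoter peaks.

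Of 30 oocyte and eggshell genes 6 were nearest to a peak (20.0%, interval 7.71 to 38.6%), with 5 in replicate 1's list and 6 in replicate 2's. All 6 had a free upstream side, were upstream and had GCGC within 100 bp. They were cpg-1, egg-1, rme-2, the yolk receptor (113, 135 bp upstream), cpg-2, another eggshell proteoglycan (96.2, 278 bp), egg-6, a membrane protein with leucine-rich repeats that is not a known eggshell part (84.1, 432 bp) and puf-11, a Pumilio-family RNA-binding protein (71.9, 260 bp). Of 48 germ granule and germline RNA genes 7 were (14.6%, interval 6.07 to 27.8%), 5 and 6 in the replicates. Beside pie-1 they were mex-1, a zinc finger protein of the early embryo (95.8, 118 bp upstream), mex-6 (86.2, 407 bp upstream), the P granule genes pgl-3 (80.9, 297 bp upstream) and pgl-2 (77.5, 268 bp past the 5' end), gld-2, a cytoplasmic poly(A) polymerase (78.5, 120 bp past the 5' end), and pid-1, a piRNA pathway gene (93.6, 11 bp past the 5' end). In this list 4 of the 7 lay upstream.

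DNA replication genes were at 4 of 39 (10.3%, interval 2.87 to 24.2%), pcn-1, mcm-10 (77.4), crn-1 (72.2) and the clamp loader gene rfc-2 (70.7), all upstream and all with GCGC. They were at 3 in replicate 1's list, where the interval (1.62 to 20.9%) takes in the background, and at 5 in replicate 2's. Chromatin modifier genes were at 4 of 53 (7.55%, interval 2.09 to 18.2%), led by lin-9 (91.6), efl-1 (71.8) and lin-52 (64.5), which encode subunits of the DREAM repressor of cell cycle genes. They were at 4 in replicate 1's list and at 2 in replicate 2's, where the interval (0.460 to 13.0%) takes in the background. Intervals of several lists take in the background. These were nuclear pore and transport genes at 3 of 39 (ima-2, an importin alpha, at 136, npp-13 at 87.5 and imb-2 at 62.0), the proteasome at 2 of 33 (rpn-11 at 71.9 and rpn-6.1 at 64.1), chaperones at 3 of 61 (sti-1 at 69.9, hsp-1 at 69.5 and cct-2 at 61.2), and the cell cycle and spindle at 3 of 81. The last were apc-11, the kinetochore gene knl-3 (105) and bir-1, which encodes a survivin-like protein (68.6). Chaperones were at 3 in replicate 1's list and 0 in replicate 2's. Cell cycle and spindle genes were at 2 in replicate 1's list and at 5 in replicate 2's, where the interval (2.03 to 13.8%) lay above the background. The proteasome was at 3 in replicate 1's list, where the interval (1.92 to 24.3%) lay above the background, and at 2 in replicate 2's. Mitochondrial genes were at 4 of 113, led by cox-5A, a cytochrome oxidase subunit (116), mrpl-55 (78.2) and mrps-35 (68.5). They were at 8 in replicate 1's list, where the interval (3.11 to 13.5%) lay above the background, and at 3 in replicate 2's. Splicing genes were at 2 of 60, mog-4 and cpf-2, a factor of mRNA 3' end cleavage (136). Transcription machinery was at 2 of 56 (rpb-11 at 76.4 and taf-12 at 65.7), and translation factors at 1 of 40 (eef-2 at 66.7).

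Only the list of chemoreceptor genes had an interval that lay wholly below the background. These were at 3 of 1268 (0.237%, interval 0.0488 to 0.690%), srh-49 (94.5), srbc-58 (83.3) and str-57 (61.8), and all 3 summits lay inside the gene. For the lists that follow the interval took in the background. Cuticle collagen genes were at 1 of 176 (col-132, 64.4) and F-box and MATH/BTB genes at 6 of 412, led by bath-44 (82.9), fbxa-113 (77.4) and fbxa-95 (72.8). Body wall muscle markers were at 1 of 40 (mlc-3, a myosin light chain, 81.6), neuron markers at 1 of 52 (tdc-1, tyrosine decarboxylase, 72.9), and intestine markers at 0 of 34. Major sperm protein genes were at 0 of 31, vitellogenins at 0 of 6, histones at 0 of 72, homeobox genes at 0 of 93 and signalling genes at 0 of 58. Histones and signalling genes were each at 1 in replicate 1's list and 2 in replicate 2's. Meiotic recombination genes were at 1 of 45, syp-5, a synaptonemal complex protein (83.2, 233 bp upstream). Cohesin genes were at 0 of 14 and condensin and dosage compensation genes at 0 of 17, and with so few genes the intervals reach 23.2% and 19.5%. Cohesin genes were at 1 in each replicate's own list. Aminoacyl-tRNA synthetases were at 0 of 31 and the vacuolar ATPase at 0 of 20. The tagged gene, him-1, lies 107 bp behind a same-strand neighbour, and its nearest optimal summit was at -6871 bp.

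**Figure D4:**
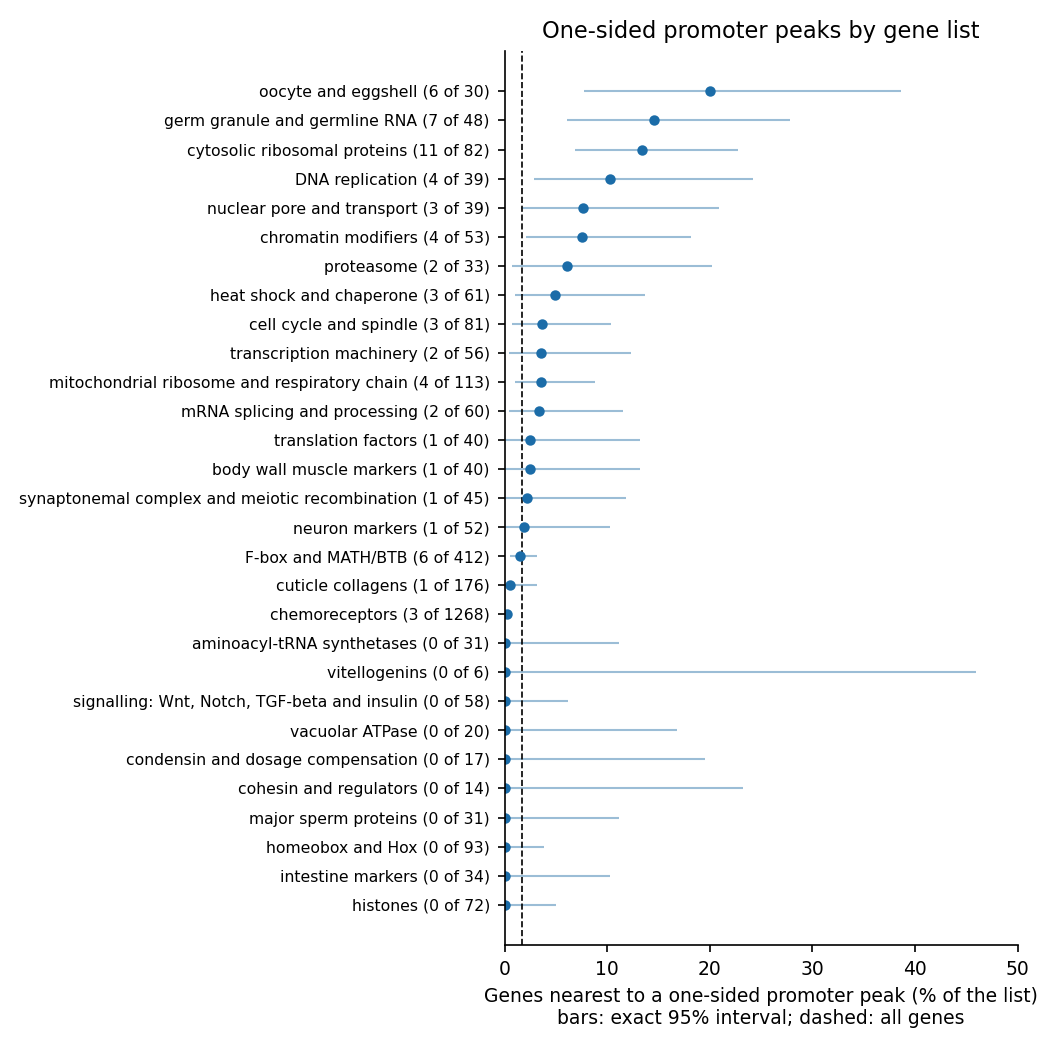
Share of the genes of each list that were nearest to a one-sided promoter peak (x axis, percent), with exact 95% intervals and counts beside each name; the dashed line is the 1.69% of all protein-coding genes. Oocyte and eggshell genes (20.0%), germ granule genes (14.6%) and ribosomal protein genes (13.4%) are at the top, and 10 lists are at 0.

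Many of these genes also carried a peak at the other end. Among the 271 genes of 1000 bp or longer that were nearest to a one-sided promoter peak, 58 had another optimal summit within 500 bp of their 3' end and over 500 bp from their 5' end (21.4%, interval 16.7 to 26.8%). The share was 17.5% (44 of 252, interval 13.0 to 22.7%) for genes nearest to a peak between head-to-head genes or in an operon-like gap, and 7.97% (1100 of 13805) for other autosomal genes of that length. The replicates' own lists gave 18.5% ± 0.865 (SD, n = 2). rpl-3 had 274 at the 5' end and 124 at a summit 107 bp past the 3' end. cpg-1 had 232 at the 5' end and 317 at a summit 207 bp past the 3' end, pcn-1 141 and 90.0, cpar-1 140 and 119, and ima-2 136 and 81.8. The 5' peak was the stronger at 31 of the 58 genes. At 30 of the 58 the 3' summit lay within 500 bp of another gene's 3' end as well, atf-7 at cpg-1 and tir-1 at rpl-3, so it cannot be assigned to 1 gene. At 5 others the 3' summit was itself a one-sided promoter peak of a neighbouring gene, C56C10.7 at icd-1, srbc-58 at sti-1, F42A6.6 at hrpa-1, usp-50 at E01B7.2 and fbxa-113 at fbxa-114. That leaves 23 genes with neither, and without those 5 the share was 19.6% (53 of 271, interval 15.0 to 24.8%).

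The letters GCGC, which read the same on both strands, stood within 100 bp of 141 of 205 upstream summits (68.8%, interval 62.0 to 75.1%) and 58 of 144 downstream ones (40.3%, interval 32.2 to 48.8%). In windows of the same 201 bp laid end to end over all sequence that meets the rule the shares were 18.0% upstream and 17.6% downstream. The motif was picked after the summit sequences had been searched for common words, so these shares describe the peaks and are not a test. CGCG, which overlaps it, stood at 60.5% of upstream summits and in 17.0% of windows. Words of the same letters in another order differed less: CCGG was at 16.1% of upstream summits and in 19.4% of windows, and GGCC at 26.3% (interval 20.5 to 32.9%) and in 16.0%. Median GC content was 37.3% at upstream summits and 33.8% in windows, and 37.6% and 36.3% downstream. Other motifs were searched on both strands. At upstream summits and in windows GAGAGA was at 19.5% (interval 14.3 to 25.6%) and 13.0%. The interval of the peaks took in the share of windows for TATAAA (20.0% and 25.5%), TTTTTTTT (19.0% and 24.2%), TTTCAG (30.7% and 34.8%) and CACGTG (5.37% and 3.57%).

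The matches gathered at the summit itself. At upstream summits there were 206 within 50 bp, and 111 of the 205 (54.1%) had at least 1 that close. That is 100 per 100 summits in the 100 bp about the summit, against 15.9 per 100 summits and 100 bp of sequence between 400 and 500 bp on either side. Downstream summits had 44.4 within 50 bp and 12.2 in the outer stretch, on the same scale. Of the upstream summits 58 had 1 match within 100 bp, 45 had 2, 22 had 3 and 16 had 4 or more. rme-2, pcn-1, rpl-24.2 and ima-2 had 4 each. The share was alike with either kind of distant neighbour: 57 of 83 with a distant head-to-head neighbour (68.7%) and 68 of 98 with a distant same-strand neighbour (69.4%) had a match. Downstream it was 31.4% (22 of 70, interval 20.9 to 43.6%) at genes after an operon-like gap and 57.7% (15 of 26, interval 36.9 to 76.6%) at genes with a free upstream side. It was 55.0% (11 of 20, interval 31.5 to 76.9%) at head-to-head genes. At genes under 50 bp behind a same-strand neighbour it was 28.6% (4 of 14, interval 8.39 to 58.1%).

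**Figure D5:**
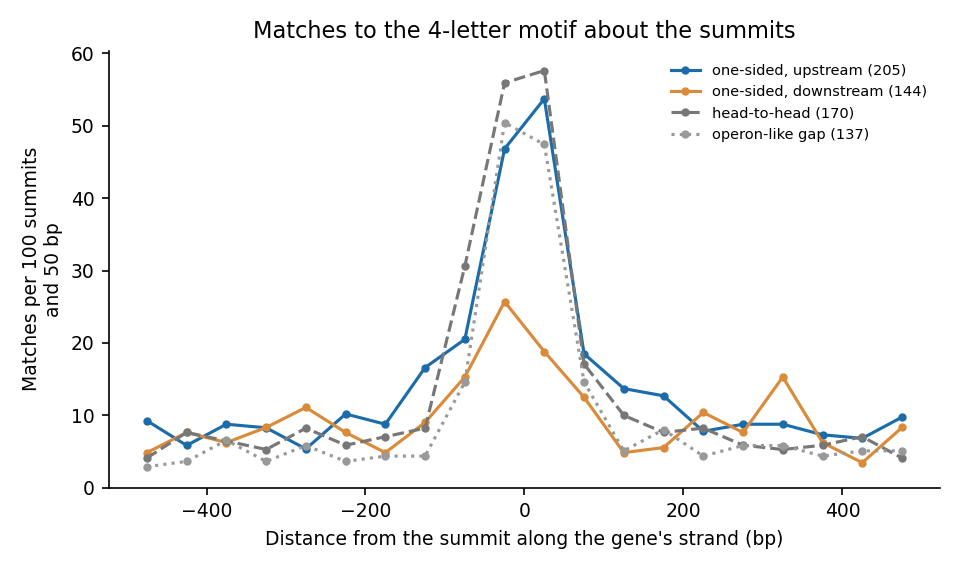
Matches to GCGC per 100 summits in each 50 bp step (y axis) by distance from the summit along the strand of the nearest gene (x axis), for upstream and downstream one-sided promoter peaks (solid) and for peaks between head-to-head genes and in operon-like gaps (broken). Upstream one-sided peaks reach 53.7 per 100 summits in the 50 bp past the summit, and downstream ones 25.7 in the 50 bp before it.

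Upstream peaks with a match had the higher median signal, 80.3 (quartiles 69.1 and 105) against 73.4 (67.2 and 87.8) for the 64 without, ranges that overlap widely. Of the 18 upstream peaks among the 25 strongest 16 had a match, and C17G10.10 and unc-93 did not. Downstream the medians were 73.1 with and 72.7 without. The share of upstream peaks with a match was 65.2% ± 1.68 in the replicates' own lists, and that of downstream peaks 37.2% ± 5.74 (SD, n = 2). The difference between the sides was larger than the spread between replicates. The 2 sides also differ in the arrangement of their genes, and the downstream share varied with that arrangement. The motif was in 19.5% of upstream windows meeting the rule on X and in 17.7% of those on the autosomes, with a median GC content of 34.8% and 33.8%. Whether the motif bears on the number of peaks on X was not tested.

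Beside the other peaks at 5' ends, the one-sided peaks differed little in strength. Their median signal was 75.2 (quartiles 66.6 and 94.3), against 76.3 (67.5 and 92.6) for the 170 peaks between head-to-head genes and 80.7 (70.6 and 96.0) for the 137 in operon-like gaps. The highest signals were 297, 198 and 179 in the same order. Both replicates had 57.9% of the one-sided peaks among their strongest, with 54.1% (interval 46.3 to 61.8%) between head-to-head genes and 63.5% (54.9 to 71.6%) in operon-like gaps, intervals that overlap. GCGC was at 68.8% of upstream one-sided summits, 74.7% (interval 67.5 to 81.0%) of summits between head-to-head genes and 60.6% (51.9 to 68.8%) of those in operon-like gaps. It was at 40.3% of downstream one-sided summits and 34.6% (31.4 to 38.0%) of the 826 summits away from 5' ends and small RNA genes. Few peaks of any of these classes were on X. X held 2 of the one-sided peaks, 0 between head-to-head genes, 1 in operon-like gaps and 28 of the 826.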

How the data were processed

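HIM-1-GFP ChIP-seq of 1 group of 2 biological replicates was analysed from the authors' deposited peak lists on ce11. Per the deposited file lists, peaks were called by the authors with a control, in single replicates and in pooled alignments, and thresholded by irreproducible discovery rate. The sources used here do not give the aligner or peak caller. The deposited signal is the caller's value on a scale of its own, and −log10 q-values are as the authors deposited them. Coordinates are 1-based. Lists on ce10 were not used here.

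Genes were those of Ensembl release 115 for WBcel235. The rule was applied to each summit, and to every base of the genome to obtain the sequence that meets it. A peak was assigned to the nearest 5' end. Replicate values used the 2051 strongest entries of each replicate, matched within 200 bp. With 1 group and no control library nothing was tested. The code was tested on simulated summits. The members, gene lists and motifs were chosen with earlier results of these data known. Genes named are those of the 25 highest signals, up to 3 of each list, those on X, 3 on each side of the limit and him-1; other names were added after their values were seen, and 1 of the 25 is not reported here.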

Additional observations from a re-analysis of the deposited data

Results flagged for a closer look

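The relaxed list of the pooled replicates, which the authors made as input to the irreproducible discovery rate step and which holds background as well as peaks, enters no comparison of the report. It had 3480 entries that meet the rule for one-sided promoter peaks and lie over 200 bp from any optimal summit. On X there were 185 of them, or 72.7 per Mb of sequence meeting the rule, nearest to 176 of 2731 genes (6.44%). On the autosomes there were 3295, or 226 per Mb, nearest to 2953 of 17242 genes (17.1%). Their median signals were 27.3 and 29.0 in the pooled list. With no control library, these were set apart only because a signal was listed in data the report does not use, and how many of the entries are background was not tested. Of the 1641 entries upstream of a 5' end 555 had GCGC within 100 bp (33.8%), against 68.8% of the optimal upstream summits and 18.0% of windows.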

How the results depend on the processing

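The number of peaks, 349, moved by more than 1.5 times where the window was 250 bp (198) or 1000 bp (525) and among the 1025 strongest peaks (126). It was 281 to 382 under the other 5 settings tried and 356 and 365 in the replicates' own lists. The share upstream, 58.7%, was 47.5% with 250 bp, 57.0% with 1000 bp, 61.0% with every transcript start, 67.5% among the 1025 strongest and 59.3% to 59.5% in the replicates. It was 87.4% at genes with a free upstream side, a setting chosen after seeing the data. The median position turned round to 3.50 bp, from -99 bp, with 250 bp, a window that leaves out the farther upstream summits, and was -114 bp with 1000 bp, -134 bp among the 1025 strongest and -109 to -93 bp in the replicates. The X share, 0.573%, was 0 to 1.33% under the other settings and 0.274% to 1.40% in the replicates. The share of genes with a free upstream side, 1.72%, was 0.801% with 250 bp, 2.63% with 1000 bp, 0.672% among the 1025 strongest and 1.71% to 1.81% in the replicates. The share with a 3' end peak, 21.4%, was 18.0% with 250 bp, 14.4% among the 1025 strongest and 17.9% to 19.1% in the replicates. Median GC content was 37.8% among the 1025 strongest and 36.1% to 37.3% in the replicates. Counting every gene within 500 bp gave 67 listed genes, against 65. No paired analysis was possible because there is only 1 group. Without counts, depth could not be weighed, and peaks below the optimal threshold are not shown to be absent.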
